A study of Mus musculus with 15 samples.

Results

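The genes described here are 37 cell cycle and mitosis genes, taken as a named list and looked up by symbol in a table of 16658 genes measured in mouse heart. All 37 were found. For description they were split by textbook role into 9 genes of DNA replication and deoxynucleotide synthesis (Mcm2 to Mcm7, Pcna, Tyms and Rrm2) and 28 genes of mitosis and cytokinesis. The RNA came from male C57BL/6 wild-type mice of 8 to 10 weeks, from heart pieces that held the infarct and the tissue around it. The aPC group received activated protein C, a natural anticoagulant protease, at 1 mg/kg 30 min before surgery. The rivaroxaban group received a coagulation factor Xa inhibitor at 3 mg/kg for 7 days beforehand, and the dabigatran group a factor IIa (thrombin) inhibitor at 10 mg/kg for 7 days. The other groups were labelled untreated and sham. Surgery tied off the left anterior descending coronary artery for 90 min and let blood flow again for 24 h, with drug given again from 2 h after surgery. The labels describe this surgery only once, with no word on single samples, so the untreated group keeps its label name here. The 90 min and 24 h were read here as applying to the aPC, rivaroxaban, dabigatran and untreated groups. No such times were assigned to sham hearts, so sham is the group without the tied artery and untreated the group without drug. The labels list 15 samples, 3 per group. The table holds 11 libraries, aPC-791 and aPC-792, Riva-313 and Riva-319, Dabi-202 and Dabi-204, untreated Cont_17 and Cont_19, and Sham_003, Sham_006 and Sham_007. The other 4 samples were not analysed here. Where values of a group are listed below, they follow this order of libraries. Each value is of a single library with its own number. The p-values set a difference of group means against the spread between libraries within groups, pooled over all groups. No label ties the libraries to a batch or pairing.

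A cell that divides first commits to the cycle in G1, when D-type cyclins with Cdk4 and Cdk6 release E2F transcription factors from the retinoblastoma family of pocket proteins. E2F factors turn on the S phase genes, among them the Mcm2 to Mcm7 helicase that unwinds DNA at replication forks, the sliding clamp Pcna, and the enzymes Tyms and Rrm2 that make deoxynucleotides. The genes of mitosis peak later, in G2 and M phase, when cyclin B with Cdk1 drives condensation of chromosomes, assembly of the spindle and division of the cell. Most cardiomyocytes of the adult mouse heart have left the cycle, and cells that divide after an infarct are known to be mainly immune cells, fibroblasts and endothelial cells. In a piece of bulk tissue, fewer cells of a type and less RNA per cell cannot be told apart.

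Promoter sequences are shown because replication genes and mitosis genes, described apart below, are known to use different promoter elements. RefSeq promoters (build GRCm38.p6) were found for 32 of the 37 genes, and the window searched ran from 220 bases before the start of the gene to 30 bases after it. Capitals mark the matches on either strand to TTTGAA (the core of the cell cycle genes homology region, CHR), to CCAAT, and to the E2F motifs TTCGCGC or TTGGCGC; a match on the minus strand reads as its reverse complement, and neighbouring or overlapping matches run together. Pcna (chr2:132253151-132253400), Mcm6 (chr1:128359676-128359925), Mcm3 (chr1:20820283-20820532) and Tyms (chr5:30073596-30073845) are the replication genes called between dabigatran and sham hearts. Cenpf (chr1:189688057-189688306) is the mitosis gene called there, and Ccnb2 (chr9:70421525-70421774) and Cdk1 (chr10:69352883-69353132) were added as mitosis genes that were not called. All 7 genes lie on the minus strand, and each sequence is written 5′ to 3′ along its gene. These 7 were chosen after their values were seen.
Pcna: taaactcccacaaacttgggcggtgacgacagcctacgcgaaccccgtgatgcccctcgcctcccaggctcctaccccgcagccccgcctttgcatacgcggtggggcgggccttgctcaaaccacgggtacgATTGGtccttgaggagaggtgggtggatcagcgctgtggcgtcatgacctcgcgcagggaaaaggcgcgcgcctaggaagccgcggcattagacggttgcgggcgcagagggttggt
Mcm6: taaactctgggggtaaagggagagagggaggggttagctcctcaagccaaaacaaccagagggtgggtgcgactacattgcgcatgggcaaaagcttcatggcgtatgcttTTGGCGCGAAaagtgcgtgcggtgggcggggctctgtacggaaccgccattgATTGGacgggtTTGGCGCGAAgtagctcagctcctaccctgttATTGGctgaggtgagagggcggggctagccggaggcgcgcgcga
Mcm3: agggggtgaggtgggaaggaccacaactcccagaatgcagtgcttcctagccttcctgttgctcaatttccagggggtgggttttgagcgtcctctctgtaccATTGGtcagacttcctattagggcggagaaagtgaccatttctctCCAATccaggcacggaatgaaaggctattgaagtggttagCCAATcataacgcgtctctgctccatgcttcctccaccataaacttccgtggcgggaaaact
Tyms: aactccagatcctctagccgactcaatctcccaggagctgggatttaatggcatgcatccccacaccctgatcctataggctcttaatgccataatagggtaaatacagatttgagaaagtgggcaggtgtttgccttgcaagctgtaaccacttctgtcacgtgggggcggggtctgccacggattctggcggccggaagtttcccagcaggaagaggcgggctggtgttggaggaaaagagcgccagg
Cenpf: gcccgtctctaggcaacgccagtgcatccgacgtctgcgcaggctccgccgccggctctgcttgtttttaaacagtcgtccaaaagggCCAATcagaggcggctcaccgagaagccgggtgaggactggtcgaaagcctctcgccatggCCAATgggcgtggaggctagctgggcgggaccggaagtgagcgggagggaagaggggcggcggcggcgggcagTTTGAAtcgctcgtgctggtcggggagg
Ccnb2: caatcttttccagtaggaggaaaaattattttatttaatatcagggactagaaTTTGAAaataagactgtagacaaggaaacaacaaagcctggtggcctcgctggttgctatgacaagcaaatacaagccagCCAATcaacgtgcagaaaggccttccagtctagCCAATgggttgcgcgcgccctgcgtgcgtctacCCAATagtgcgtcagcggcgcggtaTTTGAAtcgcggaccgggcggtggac
Cdk1: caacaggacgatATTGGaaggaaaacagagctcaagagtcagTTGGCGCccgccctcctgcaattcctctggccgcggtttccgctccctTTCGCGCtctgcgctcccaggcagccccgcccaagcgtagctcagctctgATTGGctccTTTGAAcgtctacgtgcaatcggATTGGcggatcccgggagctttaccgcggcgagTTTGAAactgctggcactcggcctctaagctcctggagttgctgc

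TTTGAA stood in the window of 15 of 24 mitosis genes (62.5%) and of 1 of 8 replication genes (12.5%), beside 17.3% of 27025 RefSeq genes. CCAAT stood in 83.3% of the mitosis genes and 87.5% of the replication genes, beside 37.0% of all genes. The E2F letters stood in 20.8% of the mitosis genes and 37.5% of the replication genes, beside 3.89% of all genes. Mcm6 held 4 E2F matches on both strands, formed by 2 stretches with the same letters, and Tyms held none of the 3 motifs. A match describes letters only, and no match says only that these letters are not in the window.

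The libraries held from 26203566 reads on listed genes (Dabi-202) to 36135006 (Dabi-204). Levels are given as the authors' log2 CPM, a read count scaled to the depth of its library and adjusted by the TMM method, on which 3 reads lie between -2.83 and -2.41. A gene was tested where it reached 0 log2 CPM in at least 3 libraries, and called where limma-trend over 13541 genes gave a Benjamini-Hochberg adjusted p under 0.05, with 2 libraries per group and 3 in sham. The cardiomyocyte identity of the tissue was clear from its markers, of which 10 of 12 were listed with a summed level from 51100 CPM (Dabi-202) to 97000 CPM (Cont_19). Of 9 erythroid markers 1 was listed, at 0.568 CPM or less. Markers that are not listed have no value here, so their levels are not known.

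Levels differed widely between the genes, and the lowest were genes of mitosis. Of the 37 genes, 29 reached the level for testing, and the 8 that did not were all mitosis genes, namely Ccnb1, Bub1, Aurkb, Birc5, Ect2, Hmmr, Ndc80 and Ube2c. All 9 replication genes were tested. In sham hearts Pcna was the most abundant per length, at 15.4 CPM per kilobase of exon, followed by Mcm4 (2.91), Mcm7 (2.57) and Mcm6 (2.55 CPM per kilobase). Bub1, a kinase of the spindle checkpoint, was the lowest at 0.0647 CPM per kilobase. A low mitosis gene rests on few reads, such as Ccnb1, the main mitotic cyclin B, with 3 reads in its poorest library and 19 in its richest.

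The replication genes and the mitosis genes did not keep step. The summed level of the 9 replication genes was 108 and 112 CPM with aPC, 87.4 and 107 with rivaroxaban, 144 and 217 with dabigatran, 102 and 100 in untreated hearts and 110, 108 and 75.9 in sham hearts. Both dabigatran libraries lay above all 9 others, and Dabi-204 stood well above Dabi-202. The summed level of the 28 mitosis genes was 56.3 and 58.1 CPM with aPC, 62.8 and 68.7 with rivaroxaban, 36.4 and 51.4 with dabigatran, 54.3 and 73.5 in untreated hearts and 53, 50.6 and 59.3 in sham hearts. Here Dabi-202 was the lowest library, while Dabi-204 overlapped the sham libraries. Cenpf alone supplied much of the mitosis sum, and without it the dabigatran libraries held 34.1 and 45.9 CPM, against 43.7, 38.7 and 48.2 CPM in sham hearts. Of the 9 replication genes, 5 (Mcm3, Mcm5, Mcm6, Pcna and Tyms) were higher in both dabigatran libraries than in the other 9 libraries, an order held by 13.2% of all tested genes. Of the 28 mitosis genes, 2 (Cenpf and Anln) were lower in both than in the other 9, an order held by 7.89% of tested genes. The 28 include 8 genes that were not tested, and 2 of 28 is near that share.

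**Figure D1:**
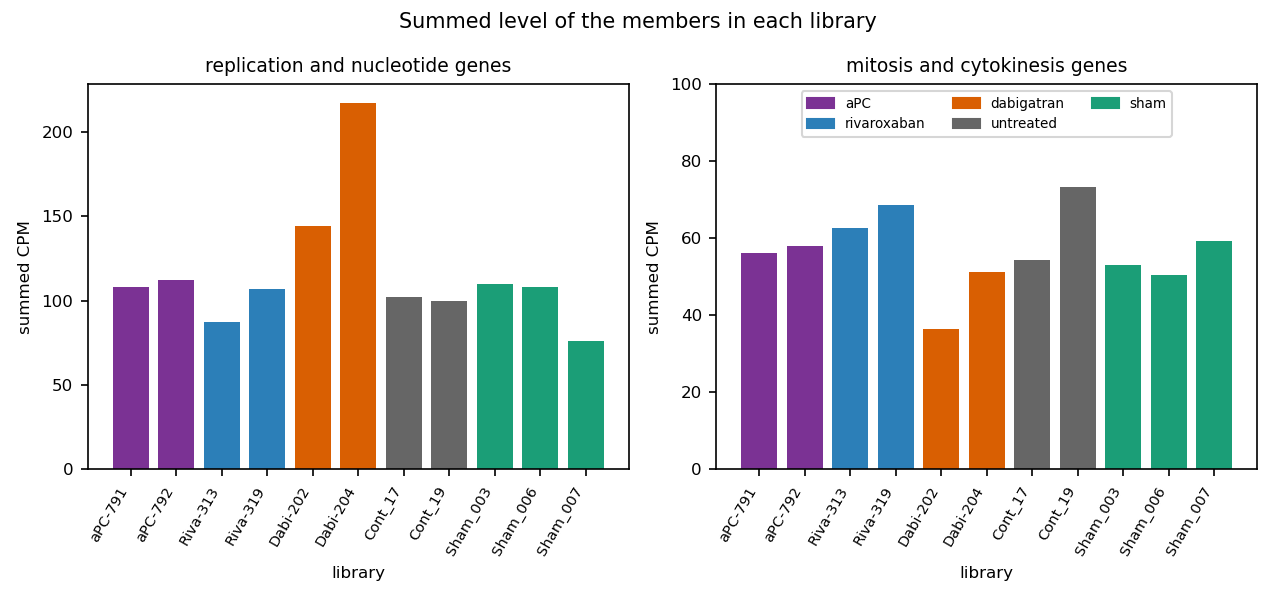
Summed CPM of the 9 replication and nucleotide genes (left) and the 28 mitosis and cytokinesis genes (right), 1 bar per library, coloured by group. The dabigatran bars reach 144 and 217 CPM on the left, above every other library, and 36.4 and 51.4 CPM on the right.

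In dabigatran against sham hearts, 5 of 29 tested genes were called (17.2%, beside 18.5% of all tested genes), so the whole list was called about as often as genes in general. The calls fell unevenly by role. Of the 9 replication genes, 4 were called and all 4 were higher (44.4%, beside 11.7% of all genes called higher), with a median difference of 1.07 on the log2 scale, beside 0.01 over all tested genes. Of 20 tested mitosis genes, 1 was called, Cenpf, which was lower (5.0%, beside 6.82% of all tested genes called lower). That is near the share over all genes, and the median difference was -0.28. These 2 sets were formed from the roles after values had been seen, so the contrast between them is a description.

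Pcna encodes the clamp that holds DNA polymerase on its template. It had 5.53 and 5.43 log2 CPM with aPC, 5.0 and 5.28 with rivaroxaban, 6.02 and 5.81 with dabigatran, 5.31 and 5.23 in untreated hearts and 5.26, 5.31 and 5.03 in sham hearts. Both dabigatran libraries were above the rest, with the replicates close together. Pcna rose by 0.71 ± 0.14 (log2 difference ± SE) against sham, 1.64-fold, at adjusted p = 0.00882 in limma. A processed copy, Pcna-ps2, is listed separately and moved the same way, at 4.40 and 4.36 log2 CPM with dabigatran, against 3.67, 3.75 and 3.58 in sham hearts. The reads of Pcna and its copy may have been split between them, so the level of Pcna is uncertain.

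Among the helicase subunits, Mcm6 had 3.51 and 3.85 log2 CPM with aPC, 3.18 and 3.74 with rivaroxaban, 4.18 and 5.05 with dabigatran, 3.45 and 3.45 in untreated hearts and 3.82, 3.69 and 3.12 in sham hearts. The dabigatran libraries did not overlap any other group but were themselves far apart. Mcm6 rose by 1.07 ± 0.30 against sham (limma adjusted p = 0.0331). Mcm3 had 2.79 and 2.97 log2 CPM with aPC, 2.35 and 2.88 with rivaroxaban, 3.68 and 4.55 with dabigatran, 3.02 and 3.60 in untreated hearts and 3.15, 3.21 and 2.61 in sham hearts, and rose by 1.12 ± 0.31 against sham (limma adjusted p = 0.0323). Again both dabigatran libraries were the highest, with Cont_19 just under Dabi-202. Without Dabi-204 the differences were 0.64 for Mcm6 and 0.69 for Mcm3 and neither was called.

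The remaining helicase subunits were not called against sham, and each was higher in Dabi-204 than in Dabi-202. Mcm5 had 2.84 and 2.76 log2 CPM with aPC, 2.28 and 2.94 with rivaroxaban, 3.21 and 4.71 with dabigatran, 2.62 and 1.63 in untreated hearts and 3.16, 3.17 and 1.55 in sham hearts. Dabi-202 lay just above Sham_003 and Sham_006, whereas Sham_007 was the lowest library. Its difference was 1.33 (95% interval 0.09 to 2.58, limma adjusted p = 0.123), 0.58 without Dabi-204 and 0.79 without Sham_007. Mcm2 differed by 1.14 (95% interval 0.16 to 2.12, limma adjusted p = 0.0985), 0.54 without Dabi-204 and 0.69 without Sham_007. Neither was called, though both intervals lay above 0. For Mcm4 and Mcm7 the differences were 0.62 ± 0.33 and 0.44 ± 0.26 (limma adjusted p = 0.206 and 0.268), and without Dabi-204 they were 0.0 and -0.06. Dabi-204 was the highest library for 6 of the 9 replication genes, and Sham_007 the lowest for 5.

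The nucleotide enzymes parted from each other. Tyms, thymidylate synthase, had 1.84 and 1.43 log2 CPM with aPC, 1.20 and 1.47 with rivaroxaban, 2.72 and 2.64 with dabigatran, 2.16 and 1.03 in untreated hearts and 1.85, 1.42 and 1.40 in sham hearts. Here the dabigatran replicates were nearly equal and above every other library. Tyms rose by 1.12 ± 0.33 against sham (limma adjusted p = 0.042). Rrm2, a subunit of ribonucleotide reductase, had 0.80 and 1.40 log2 CPM with aPC, 1.11 and 1.39 with rivaroxaban, 0.27 and 1.66 with dabigatran, 0.71 and 2.01 in untreated hearts and 1.03, 0.83 and 0.34 in sham hearts. The dabigatran libraries lay on both sides of the sham libraries, and the difference was 0.23 ± 0.49 (limma adjusted p = 0.778), or -0.47 without Dabi-204.

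**Figure D2:**
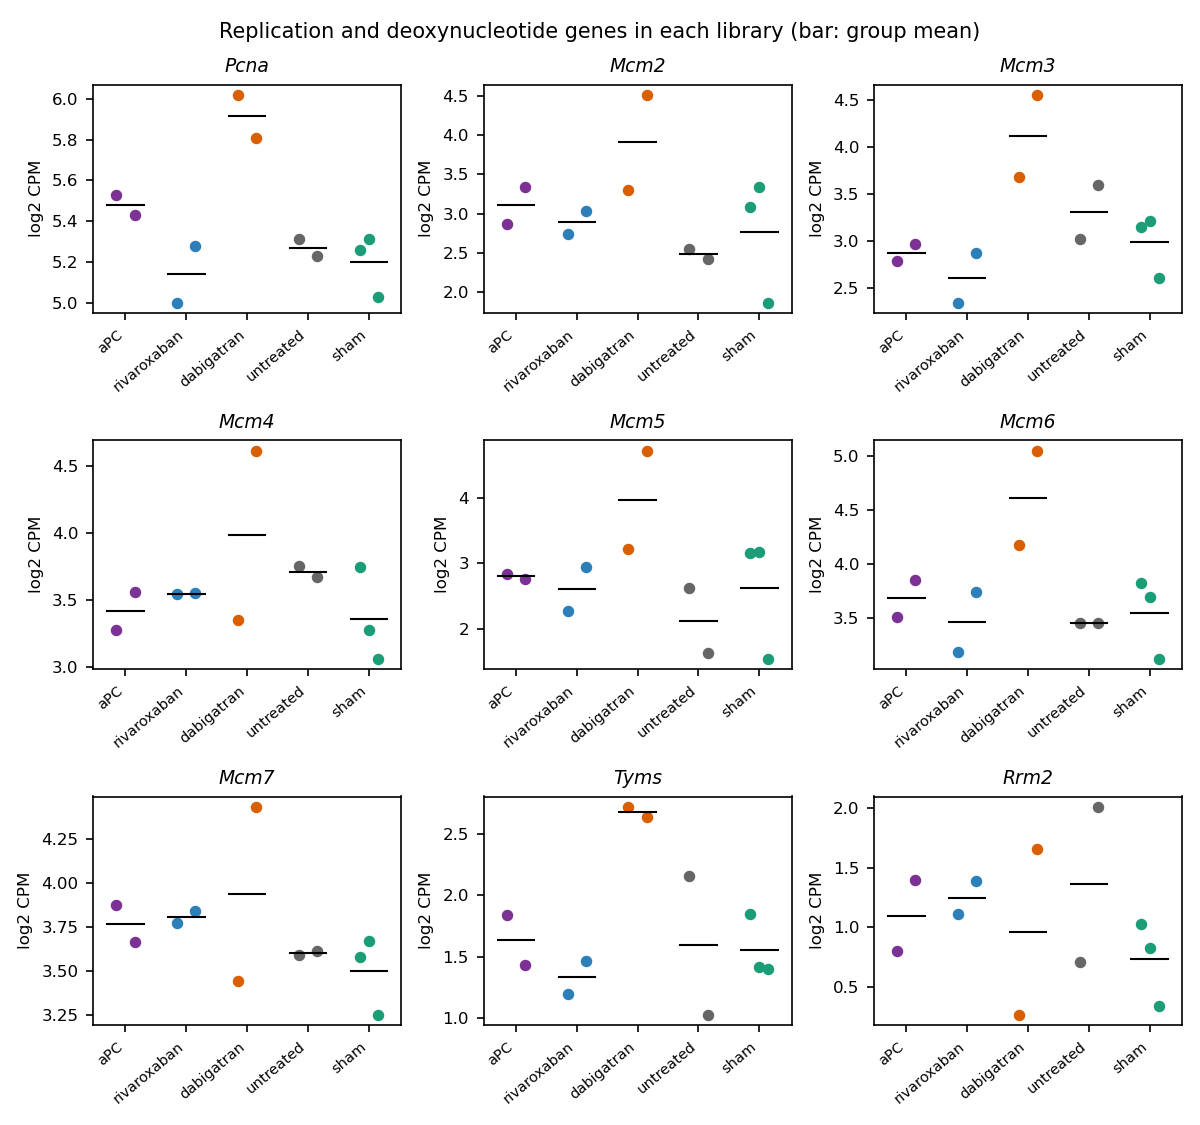
log2 CPM of the 9 replication and nucleotide genes in each library, 1 point per library and a bar at the group mean, with groups from left to right aPC, rivaroxaban, dabigatran, untreated and sham. Pcna and Tyms have both dabigatran points close together at the top (6.02 and 5.81, 2.72 and 2.64), while for Mcm5 they are apart (3.21 and 4.71) and for Rrm2 they are 0.27 and 1.66, below Cont_19 at 2.01.

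Single libraries decided how many genes were called against sham. Without Sham_003, Sham_006 or Sham_007 the count was 1, and that gene was Pcna. It was 2 without Dabi-202, when Pcna, Mcm3, Tyms and Cenpf were lost and Mcm4 was gained. It was 3 without Dabi-204, when Mcm3, Mcm6 and Tyms were lost and Top2a was gained, and 3 without aPC-791, aPC-792, Riva-313 or Riva-319, when Tyms and Cenpf were lost.

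**Figure D3:**
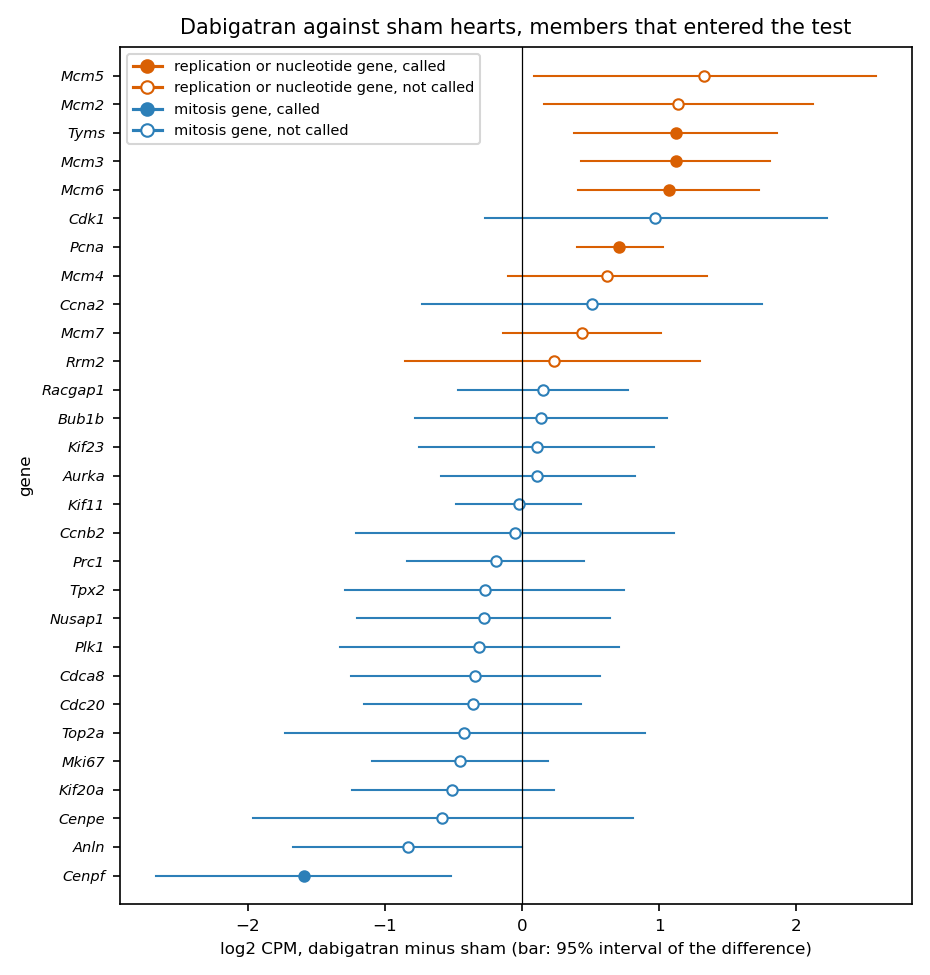
Difference in log2 CPM, dabigatran minus sham, for the 29 tested genes, with the 95% interval of each difference; filled points were called. The 9 replication genes lie between 0.23 and 1.33, and the mitosis genes between -1.59 (Cenpf) and 0.97 (Cdk1).

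Cenpf, a large protein of the outer kinetochore, was the mitosis gene with the greatest spread. It had 3.62 and 4.15 log2 CPM with aPC, 4.74 and 3.96 with rivaroxaban, 1.20 and 2.45 with dabigatran, 2.64 and 4.31 in untreated hearts and 3.23, 3.56 and 3.47 in sham hearts. Both dabigatran libraries were below all others, though Cont_17 came close to Dabi-204. Cenpf fell by 1.59 ± 0.49 on the log2 scale against sham (limma adjusted p = 0.0454), and without Dabi-202 the difference was -0.97 and was not called. The call was kept in 9 of 19 alternatives and was also lost with log2(CPM + 1), with voom on recovered reads, and without any 1 sham, aPC or rivaroxaban library. Cenpf had 59 to 753 reads per library. The motor Cenpe, which links kinetochores to microtubules, had 0.73 and 0.28 log2 CPM with aPC, -0.43 and 0.24 with rivaroxaban, -1.05 and 0.28 with dabigatran, 0.51 and -1.52 in untreated hearts and 0.54, -0.46 and 0.49 in sham hearts. Its dabigatran, untreated and sham libraries overlapped.

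The proliferation antigen Mki67 had 2.29 and 2.04 log2 CPM with aPC, 2.19 and 2.59 with rivaroxaban, 1.48 and 2.25 with dabigatran, 2.45 and 2.61 in untreated hearts and 2.22, 2.05 and 2.69 in sham hearts. Dabi-202 was the lowest library, and Dabi-204 lay within the sham range. The difference between dabigatran and sham hearts was -0.45 (95% interval -1.09 to 0.19, limma adjusted p = 0.302), an interval that holds both lower and higher levels. Top2a, the topoisomerase that untangles chromosomes, had 1.21 and 1.51 log2 CPM with aPC, 0.79 and 1.98 with rivaroxaban, -0.57 and 1.84 with dabigatran, 1.44 and 1.00 in untreated hearts and 1.11, 0.95 and 1.09 in sham hearts. The dabigatran pair held the lowest library and nearly the highest, and the difference against sham turned with the library left out. It was -0.42 and not called with both, -1.63 and called without Dabi-204, and 0.79 without Dabi-202.

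Among the cyclins and kinases of mitosis, the dabigatran libraries were 1.97 apart on the log2 scale for Cdk1 but 0.03 apart for the cyclin Ccnb2 and 0.02 for the spindle kinase Aurka. Cdk1, the kinase that drives entry into mitosis, had 0.17 and 0.33 log2 CPM with aPC, -0.74 and 0.21 with rivaroxaban, -0.75 and 1.23 with dabigatran, -0.02 and 0.56 in untreated hearts and -0.26, -0.87 and -1.06 in sham hearts. Its difference between dabigatran and sham hearts, 0.97, was -0.01 without Dabi-204. Ccnb1 had -1.08 and -1.20 log2 CPM with aPC, -0.83 and -0.71 with rivaroxaban, -2.48 and -0.95 with dabigatran, -0.62 and -0.75 in untreated hearts and -1.25, -1.33 and -0.48 in sham hearts. Both genes were lower in Dabi-202 than in Dabi-204, and Ccnb1 was lowest of all in Dabi-202. The polo kinase Plk1 had -0.75 and -0.65 log2 CPM with aPC, -0.43 and 0.53 with rivaroxaban, -1.05 and -0.05 with dabigatran, -0.02 and 0.84 in untreated hearts and -0.11, -0.65 and 0.04 in sham hearts. Bub1b, of the spindle checkpoint, had 1.16 and 0.73 log2 CPM with aPC, 0.46 and 0.61 with rivaroxaban, 0.31 and 1.52 with dabigatran, 0.74 and 1.80 in untreated hearts and 0.57, 0.88 and 0.86 in sham hearts. Aurkb, the kinase of the chromosomal passenger complex, had -0.96 and -0.74 log2 CPM with aPC, -1.02 and -0.11 with rivaroxaban, -1.44 and -0.05 with dabigatran, -0.16 and -0.08 in untreated hearts and -0.74, -0.46 and -0.70 in sham hearts. For all 3 the dabigatran libraries lay on either side of at least 1 sham library.

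Spread across libraries differed between mitosis genes. Kif11, the motor that pushes spindle poles apart, had 2.75 and 2.56 log2 CPM with aPC, 2.15 and 2.48 with rivaroxaban, 2.74 and 2.38 with dabigatran, 2.71 and 2.56 in untreated hearts and 2.57, 2.56 and 2.61 in sham hearts, the narrowest range of the 37 genes. Cdc20, which activates the anaphase promoting complex, had 1.21 and 0.18 log2 CPM with aPC, 0.43 and 1.09 with rivaroxaban, 0.35 and 0.55 with dabigatran, 1.07 and 0.90 in untreated hearts and 0.57, 0.93 and 0.94 in sham hearts. Both dabigatran libraries were below all untreated and sham libraries for Cdc20, and aPC-792 was lower still. Kif23, a motor of the central spindle, had 0.90 and 0.66 log2 CPM with aPC, 0.46 and 1.19 with rivaroxaban, 1.32 and 0.84 with dabigatran, 1.19 and 0.76 in untreated hearts and 1.38, 0.31 and 1.22 in sham hearts. All groups overlapped for Kif23. Anln, an actin-binding protein of the cleavage furrow, had 0.80 and 0.93 log2 CPM with aPC, 1.09 and 1.73 with rivaroxaban, 0.27 and 0.60 with dabigatran, 1.13 and 2.38 in untreated hearts and 1.25, 1.06 and 1.49 in sham hearts. The dabigatran libraries were the lowest 2 of the 11, and the difference of -0.83 ± 0.38 against sham was not called (limma adjusted p = 0.147). Reads of Ccna2, Cdc20, Cdca8, Kif20a, Mcm7, Nusap1 and Prc1 are uncertain, because each shares exon sequence with a listed gene on the opposite strand and the strand setting of the counting is not given in the sources used here.

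**Figure D4:**
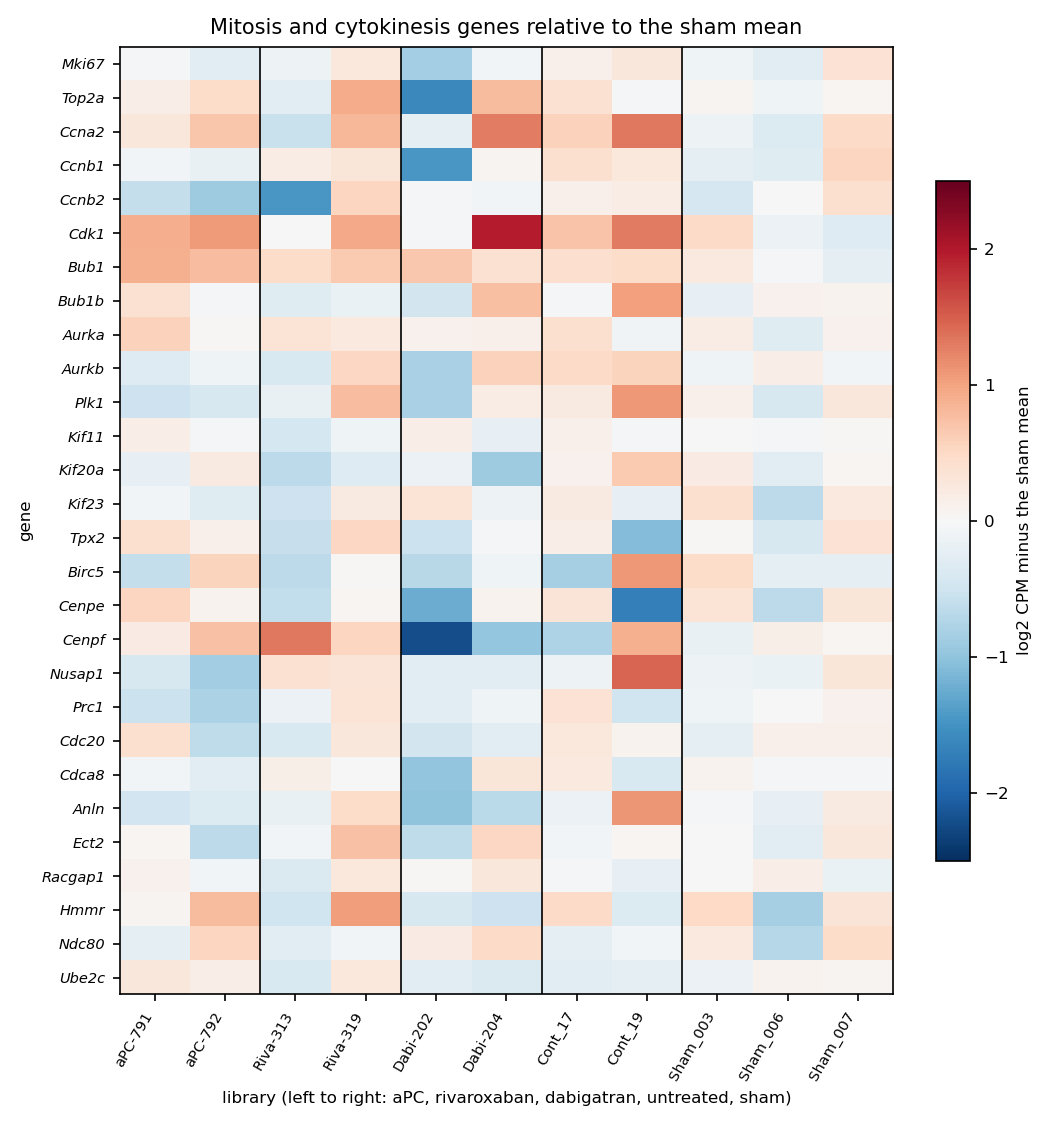
log2 CPM minus the sham mean for the 28 mitosis and cytokinesis genes (rows) in 11 libraries (columns, from left to right aPC, rivaroxaban, dabigatran, untreated and sham); red is above and blue below the sham mean. Dabi-202 is the lowest library for 9 of the 28 genes, and Cont_19 the highest for 7.

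Against untreated hearts, dabigatran hearts had 2 of 29 genes called, both higher (6.9%, beside 13.8% of all tested genes called in either direction and 8.71% called higher). Pcna rose by 0.64 ± 0.16 (limma adjusted p = 0.0255) and Mcm6 by 1.17 ± 0.33 (limma adjusted p = 0.0407). Mcm5 (1.83 ± 0.61), Mcm2 (1.42 ± 0.49) and Tyms (1.08 ± 0.37) missed the threshold with limma adjusted p of 0.0731, 0.0768 and 0.074. Anln and Cenpf differed by -1.32 ± 0.41 and -1.65 ± 0.53 (limma adjusted p = 0.0582 and 0.0646). Which genes passed the threshold depended on the scaling. With median centring 1 gene was higher (Pcna) and 1 lower (Anln), and with quantile normalization 1 was higher (Pcna) and 2 were lower (Anln and Cenpf), so the Mcm6 call was lost under both. The count was 0 without Cont_19 and 0 in a fit of these 4 libraries alone. It was 4 without Sham_007. The Pcna call was also lost without Dabi-202, and the Mcm6 call without Dabi-204, aPC-791, aPC-792, Riva-313, Riva-319, Sham_003 or Sham_006.

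Rivaroxaban and dabigatran hearts differed in 5 of 29 genes (17.2%, beside 23.3% of all tested genes). In rivaroxaban hearts Pcna was lower than in dabigatran hearts by a log2 difference of -0.78 ± 0.16 (limma adjusted p = 0.00667). Mcm3 differed by -1.50 ± 0.34, Tyms by -1.34 ± 0.37 and Mcm6 by -1.15 ± 0.33 (limma adjusted p = 0.012, 0.025 and 0.0293). Cenpf was higher with rivaroxaban by 2.53 ± 0.53, 5.77-fold (limma adjusted p = 0.00835). The Mki67 difference was 0.53 (95% interval -0.18 to 1.23, limma adjusted p = 0.26). All 5 calls were lost without Riva-313. Those of Pcna, Cenpf and Tyms were lost without Dabi-202, and those of Mcm3, Mcm6 and Tyms without Dabi-204. Those of Mcm6 and Tyms were lost without Riva-319. Rivaroxaban and dabigatran were given at different doses, so these values compare the regimens.

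In aPC against dabigatran hearts, 2 of 29 genes were called (6.9%, beside 21.5% of all tested genes). Cenpf rose by 2.06 ± 0.53, 4.16-fold, and Mcm3 fell by 1.24 ± 0.34 on the log2 scale (limma adjusted p = 0.0219 and 0.0279). Tyms, Mcm6 and Pcna differed by -1.05 ± 0.37, -0.93 ± 0.33 and -0.43 ± 0.16 and missed the threshold (limma adjusted p = 0.0651, 0.0654 and 0.0713). The Cenpf call was lost without aPC-791, aPC-792 or Dabi-202, and the Mcm3 call without aPC-791, aPC-792 or Dabi-204. Over the alternatives the difference ran from 1.43 to 2.68 for Cenpf and from -1.67 to -0.80 for Mcm3. These 4 comparisons share the dabigatran libraries, so their values for a gene are not independent of each other.

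In the 6 comparisons that left dabigatran out, no gene of the 29 was called by limma-trend. In untreated against sham hearts, 0 genes were called (beside 10.6% of all tested genes), and 0 had an unadjusted p under 0.05. The Mki67 difference there was 0.21 (95% interval -0.43 to 0.85, limma adjusted p = 0.648). In rivaroxaban against sham hearts, 0 genes were called (beside 0.0% of all tested genes) and 0 had an unadjusted p under 0.05. In aPC against sham hearts, 0 genes were called (beside 1.17%), and 1 had an unadjusted p under 0.05, the central spindle protein Prc1 at -0.66 ± 0.29. In rivaroxaban against untreated hearts, 0 genes were called (beside 8.47%), and 1 had an unadjusted p under 0.05, the motor Kif20a at -0.87 ± 0.36. In aPC against untreated hearts, 0 genes were called (beside 17.6%), and 1 had an unadjusted p under 0.05, the spindle protein Nusap1 at -1.30 ± 0.45. In aPC against rivaroxaban hearts, 0 genes were called (beside 1.54%), and 1 had an unadjusted p under 0.05, Prc1 at -0.76 ± 0.32. The voom fit on recovered reads also called 0 genes in all 6. With library weights 2 genes, Nusap1 and Prc1, were called in aPC against rivaroxaban hearts and 0 in the other 5. The untreated pair was uneven, and without Cont_17, which leaves Cont_19 alone, 3 genes were called in untreated against sham hearts (Nusap1, Anln and Cenpe), 2 in rivaroxaban against untreated hearts (Kif20a and Nusap1) and 3 in aPC against untreated hearts (Nusap1, Anln and Cenpe). Without Cont_19, Prc1 was called in aPC against untreated hearts.

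Upstream of the S phase genes, the G1 cyclins and their kinases had 2 of 8 genes called higher in dabigatran against sham hearts (25.0%, beside 11.7% of all tested genes called higher there). Ccnd1, cyclin D1, had 5.76 and 5.93 log2 CPM with aPC, 4.97 and 5.33 with rivaroxaban, 6.89 and 6.86 with dabigatran, 5.39 and 5.28 in untreated hearts and 5.63, 5.87 and 5.44 in sham hearts. The dabigatran replicates were almost equal and above all other libraries. Ccnd1 rose by 1.23 ± 0.16 against sham (limma adjusted p = 0.00144) and by 1.54 ± 0.17 against untreated hearts (limma adjusted p = 0.000808). It differed by -1.72 ± 0.17 in rivaroxaban against dabigatran hearts and by -1.03 ± 0.17 in aPC against dabigatran hearts (limma adjusted p = 0.000423 and 0.00379). All 4 calls were kept in 19 of 19 alternatives run. Its partner kinase Cdk4 had 5.60 and 5.54 log2 CPM with aPC, 5.15 and 5.43 with rivaroxaban, 6.27 and 6.11 with dabigatran, 5.22 and 4.59 in untreated hearts and 5.50, 5.61 and 5.17 in sham hearts. It rose by 0.76 ± 0.20 against sham (limma adjusted p = 0.0262), a call lost without either dabigatran library, Sham_003 or Sham_007.

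Of 13 E2F factors and pocket proteins, 3 were called in dabigatran against sham hearts, all higher (23.1%, beside 11.7% of all tested genes). They were the repressor-type E2f4 (0.92 ± 0.19) and E2f5 (0.83 ± 0.20) and the activator E2f2 (2.17 ± 0.57), with limma adjusted p of 0.011, 0.0202 and 0.026. The median of the 13 was 0.30, beside 0.01 over all tested genes. The E2f4 call was lost without Dabi-202, that of E2f5 without Dabi-202 or any 1 sham library, and that of E2f2 without either dabigatran library, Sham_006 or Sham_007. E2f1, an activator, had 0.46 and 1.36 log2 CPM with aPC, 0.82 and 1.05 with rivaroxaban, 1.38 and 2.46 with dabigatran, -0.21 and -0.37 in untreated hearts and 1.42, 1.38 and 0.94 in sham hearts. The untreated libraries were the lowest of all. E2f1 fell by 1.54 ± 0.38 in untreated against sham hearts (limma adjusted p = 0.0336) and was higher by 2.21 ± 0.42 in dabigatran against untreated hearts (limma adjusted p = 0.00857). The first of these calls was lost in 10 of 18 alternatives, among them leaving out Cont_19 or any 1 sham library.

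Among 7 Cdk inhibitors, which hold the cycle back, 6 were tested. In untreated against sham hearts 1 was called higher and 1 lower (33.3% together, beside 10.6% of all tested genes). Cdkn1a (p21) had 6.98 and 5.07 log2 CPM with aPC, 5.58 and 5.52 with rivaroxaban, 7.79 and 6.48 with dabigatran, 7.91 and 9.57 in untreated hearts and 5.59, 5.26 and 5.57 in sham hearts. The untreated pair was the highest, with aPC-791 and both dabigatran libraries also above the sham range. Cdkn1a rose by 3.27 ± 0.58 in untreated against sham hearts (limma adjusted p = 0.0115). It fell by 3.19 ± 0.64 in rivaroxaban and by 2.71 ± 0.64 in aPC against untreated hearts (limma adjusted p = 0.0198 and 0.02). Cdkn1c (p57) went the other way, at -1.14 ± 0.24 in untreated against sham hearts and at 1.25 ± 0.26 in rivaroxaban and 1.40 ± 0.26 in aPC against untreated hearts (limma adjusted p = 0.0183, 0.0226 and 0.00863). All 3 Cdkn1a calls were lost without Cont_19, the first also without Sham_006, the second without Riva-313 or Riva-319 and the third without aPC-792. The Cdkn1c call in untreated against sham hearts was lost without Sham_003 or Sham_006, the one for rivaroxaban without Riva-313 or Riva-319, and the one for aPC without aPC-792. Library weights ended all 6 of these calls, and fitting only the 2 groups compared ended 5 of them, all but Cdkn1a in untreated against sham hearts. Cdkn1c was also called lower in dabigatran against sham hearts, by -0.98 to -0.59 over the alternatives, a call kept in 10 of 19. It was the 1 inhibitor of 6 called there (16.7%, beside 6.82% of all tested genes called lower). Against dabigatran hearts Cdkn1c was called higher with rivaroxaban (kept in 14 of 19) and aPC (17 of 19).

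**Figure D5:**
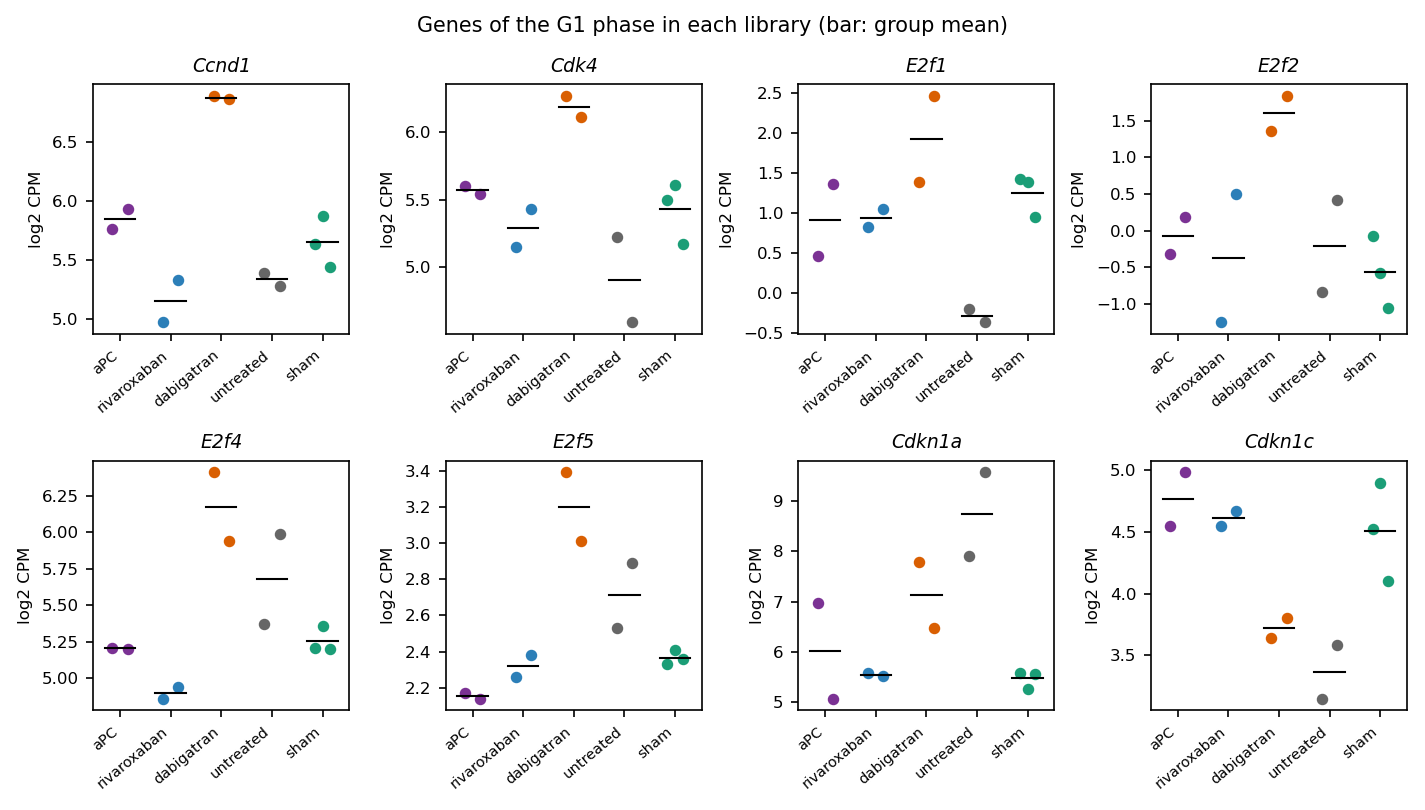
log2 CPM of 8 genes that act in G1, 1 point per library and a bar at the group mean, with groups from left to right aPC, rivaroxaban, dabigatran, untreated and sham. Ccnd1 is highest in both dabigatran libraries (6.89 and 6.86), Cdkn1a in the untreated pair (7.91 and 9.57), and E2f1 is lowest in the untreated pair (-0.21 and -0.37).

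Of 13 tested genes of origin licensing and firing, 3 were called in dabigatran against sham hearts (23.1%, beside 18.5% of all tested genes), and the median difference was 0.36. The 2 called higher and the 1 called lower were the origin recognition subunits Orc2 (0.87 ± 0.21) and Orc6 (0.96 ± 0.29) and Gmnn, geminin, the inhibitor of licensing (-0.64 ± 0.16), with limma adjusted p of 0.0186, 0.0427 and 0.0216. The calls of Orc2 and Gmnn were lost without Dabi-202, Sham_003 or Sham_006, and that of Orc6 without Dabi-202 or any 1 sham, aPC or rivaroxaban library. Of 19 tested further mitosis genes, 1 was called there and it was lower (5.26%, beside 6.82% of all tested genes called lower). That is near the share over all genes. It was the kinetochore gene Spc24 at -0.95 ± 0.23 (limma adjusted p = 0.0201), a call lost without Dabi-202, Sham_003 or Sham_006. The median of the 19 was -0.12. The MuvB complex with Mybl2 and Foxm1 activates mitosis promoters. Of its 7 genes, 0 were called there by limma, beside 18.5% of all tested genes. The median difference of the 7 was 0.10, beside 0.01 over all tested genes. Of 13 p53 targets, 5 were called higher and 1 lower in dabigatran against sham hearts (38.5% and 7.69%, beside 11.7% and 6.82% of all tested genes), with a median difference of 0.89, beside 0.01 over all tested genes.

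Markers of other cell types also differed between groups, and not always in the library order of the replication genes. The neutrophil sum was 1310 CPM in Dabi-202 and 745 CPM in Dabi-204, whereas the replication sum was 144 and 217 CPM. The smooth muscle and pericyte sum was also lower in Dabi-204, at 5330 and 4930 CPM in the same order. Other sums were higher in Dabi-204, as the replication sum was. These were monocyte and macrophage (989 and 1070 CPM), fibroblast (1640 and 2480), endothelial (1500 and 1690), B cell (28.8 and 51.8), T cell (5.68 and 6.25) and, by little, cardiomyocyte markers (51100 and 52100 CPM). Cont_17 had a neutrophil sum of 990 CPM and a replication sum of 102 CPM. The 14 monocyte and macrophage markers summed to 780 to 868 CPM with aPC, 510 to 516 with rivaroxaban, 989 to 1070 with dabigatran, 375 to 500 in untreated hearts and 617 to 806 in sham hearts, with 5 of 14 called higher in dabigatran against sham hearts (35.7%, beside 11.7% of all tested genes). The 13 listed neutrophil markers of 16 summed to 200 to 508 CPM with aPC, 233 to 271 with rivaroxaban, 745 to 1310 with dabigatran, 409 to 990 in untreated hearts and 157 to 189 in sham hearts, with 8 of 10 tested called higher with dabigatran against sham (80.0%, beside 11.7%). The dabigatran libraries were thus highest for macrophage markers, while untreated Cont_17 reached the dabigatran range for neutrophil markers. The cardiomyocyte sum was 51100 to 52100 CPM with dabigatran, against 64600 to 86000 CPM in sham hearts, with 2 of 10 markers called lower (20.0%, beside 6.82% of all tested genes called lower). The B cell sum was 28.8 to 51.8 CPM with dabigatran, against 19.3 to 35.6 CPM in sham hearts (1 of 5 tested called higher, beside 11.7%). Fibroblast markers summed to 1640 to 2480 CPM with dabigatran, against 2500 to 3260 CPM in sham hearts (2 of 12 called lower, beside 6.82%), and endothelial markers to 1500 to 1690 CPM, against 1760 to 1830 CPM in sham hearts (2 of 12 called lower, beside 6.82%). T cell markers summed to 5.68 to 6.25 CPM with dabigatran, against 2.86 to 3.23 CPM in sham hearts, with 1 of 8 tested, and smooth muscle and pericyte markers to 4930 to 5330 CPM, against 3770 to 4430 CPM in sham hearts (1 of 10 called higher and 1 lower, beside 11.7% and 6.82%). The part of these markers in the differences of the replication genes, of Ccnd1 and of Cenpf was not tested.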

How the data were processed

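Libraries were prepared from 500 ng of total RNA per heart sample by polyA selection and a directional kit, per the labels' protocols. The authors deposited log2 CPM with TMM normalization in 1 table of 16658 genes. The submitters' processing notes name STAR, edgeR, Trim Galore, FastQC and bcl2fastq and build mm10. No version, counter, annotation or strand setting is given in the sources used here. Reads were recovered as whole multiples of 1 step, to within 0.05 read, for 100% of values in each library.

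Genes with at least 0 log2 CPM in at least 3 libraries (13541) entered a two-sided limma-trend fit of 5 group means (limma 3.58.1, statmod 1.5.0, R 4.3.3), with Benjamini-Hochberg adjustment over all genes tested and calls at an adjusted p under 0.05. On data simulated for dabigatran against sham, it recovered 49 of 100 genes changed 2-fold and 84 of 100 changed 4-fold among 13541. In the simulation all other genes were unchanged and the spread was the same in each group. In the real comparison 18.5% of tested genes were called. Estimated library weights, lower where the spread is wider, ran from 0.2423 (Cont_17 and Cont_19) to 3.147 (Sham_003). The simulated rates may therefore not carry over to these data. Full statistics were given for up to 4 genes per direction and comparison with the smallest p and for a fixed set of members by role, and up to 3 genes per further list were named; Mcm4, Mcm7, Mcm2, Cdk1, Top2a, Rrm2, Anln, the intervals and the Pcna copy were chosen for their statistics after values were seen. The members and lists were chosen with earlier results of these data known. Positions and exon overlaps come from GENCODE release M21, and promoters from RefSeq. The alternatives changed the filter, normalization, pseudocount, libraries in the fit, weights or test.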

Additional observations from a re-analysis of the deposited data

How the results depend on the processing

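Each of the 10 counts of called genes was recomputed with another filter, normalization, pseudocount, set of libraries, and, chosen after seeing the data, with limma voom on recovered reads and with library weights. Outside the leave-one-out fits, counts moved by over 1.5 times in 2 comparisons. In dabigatran against untreated hearts the count of 2 became 0 with only those 2 groups fitted and 0 with library weights, and in aPC against rivaroxaban hearts 0 became 2 with library weights. The cause was not tested. Leaving out each library in turn gave 1 to 6 genes in dabigatran against sham hearts, 0 to 8 in dabigatran against untreated, 0 to 6 in rivaroxaban against dabigatran and 0 to 5 in aPC against dabigatran hearts. It gave 0 to 3 in untreated against sham, 0 to 2 in rivaroxaban against untreated and 0 to 3 in aPC against untreated hearts, and 0 to 0 in rivaroxaban against sham, aPC against sham and aPC against rivaroxaban hearts. Leaving out 1 library of a pair assumes that the lone library varies like the other groups. In dabigatran against sham hearts, of 19 alternatives the call was kept in 18 for Pcna, 14 each for Mcm3 and Mcm6, 10 for Tyms and 9 for Cenpf. Of 24 tested genes not called there, 14 changed sign when single libraries were left out, 3 replication and 11 mitosis genes, as did 14 of 27 in dabigatran against untreated, 15 of 24 in rivaroxaban against dabigatran and 13 of 27 in aPC against dabigatran hearts. In dabigatran against sham hearts Top2a ran from -1.63 to 0.79, Cdk1 from -0.01 to 1.96, Mcm4 from 0.0 to 1.25, Mcm7 from -0.06 to 0.93 and Rrm2 from -0.47 to 0.93. In dabigatran against untreated hearts the ranges of Mcm4, Mcm7 and Rrm2 were -0.36 to 0.90, -0.16 to 0.83 and -1.09 to 0.31. In rivaroxaban against dabigatran hearts in the same order of genes they were -1.07 to 0.19, -0.62 to 0.36 and -0.41 to 0.98, and in aPC against dabigatran hearts -1.20 to 0.06, -0.66 to 0.32 and -0.56 to 0.84. Mcm4 and Mcm7 changed sign without Dabi-204, and Rrm2 without Dabi-202, Dabi-204, Cont_19 or aPC-792, depending on the comparison. The planned edgeR and DESeq2 tests were not run, since the deposited unit is log2 CPM. Limma voom on the recovered reads was run instead. No paired analysis was possible because no replicate number is shared between groups.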
